A study of Mus musculus with 6 samples.

Results

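The 37 genes described here form the KEAP1-NRF2 antioxidant response and the glutathione and thioredoxin systems it feeds: the regulators, 4 further NRF2-responsive genes, glutathione synthesis and transfer, glutathione and thioredoxin peroxidases, superoxide dismutases and catalase. They were taken by gene symbol from a table of 54532 mouse genes, and each symbol matched 1 row. The rule for taking them was a list of symbols, not a measured value, though the list was drawn up with earlier results of these data known. NRF2, encoded by Nfe2l2, is a transcription factor that KEAP1 holds in the cytoplasm and hands to a ubiquitin ligase; oxidants and electrophiles modify cysteines of KEAP1, and NRF2 then enters the nucleus and activates genes that carry antioxidant response elements. Glutathione and thioredoxin are the main thiol reductants of animal cells: glutathione peroxidases and peroxiredoxins use them to reduce hydrogen peroxide, and glutathione reductase and thioredoxin reductases restore them with electrons from NADPH. Pancreatic beta cells are known for low levels of catalase and of glutathione peroxidase compared with liver.

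The study compared 3 libraries in which PP2Ac was knocked down, titled sh2, with 3 control libraries, titled shc. PP2Ac is the catalytic subunit of protein phosphatase 2A. All 6 libraries were labelled as MIN6 cells, a beta cell line from a mouse insulinoma, and the labels name no drug or lipid treatment and no age or passage. Nothing in the labels says that the 3 libraries of a group came from separate cultures or clones, so the p-values below measure only the spread between these libraries, which may be technical.

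The targeted gene came first. Ppp2ca, which encodes the alpha form of the catalytic subunit and lies on chromosome 11 (52098681 to 52127778, GRCm38), had 10.1, 11.4 and 10.9 FPKM (reads scaled for gene length and library depth) in the knockdown libraries, against 42.5, 34.6 and 35.6 FPKM in the control libraries. The knockdown mean was 28.7% of the control mean (limma log2 change of -1.70, adjusted p = 5.35e-06; 2-sided exact permutation p = 0.1, the smallest that 3 against 3 libraries can give). Libraries held between 14614737 and 16030939 reads, as recovered from the FPKM steps. Messenger RNA of the mitochondrial genome took 1.29% ± 0.059 of reads in knockdown and 3.03% ± 0.37 in control libraries (SD, n = 3 each). Of 14 beta cell markers, 12 had a mean under 1 FPKM and 7 were at 0 in all 6 libraries, Ins1 and Ins2 among them, so the RNA did not carry the defining markers of the labelled cell type. The 14 markers summed to 8.16 to 9.83 FPKM in knockdown and 3.13 to 4.81 FPKM in control libraries. A list of 7 stromal markers, Vim and Col1a1 among them, summed to 999 to 1140 FPKM in knockdown and 413 to 471 FPKM in control libraries, and the 5 of them that could be tested were all higher in knockdown. The sum of 4 duct markers went the other way, with 351 to 390 FPKM in knockdown and 673 to 841 FPKM in control libraries. Of these markers 3 had a mean under 1 FPKM, so the sum was almost all 1 gene. It was the only duct marker that could be tested (log2 change of -1.03). Other endocrine, acinar and endothelial lists each summed to at most 3.1 FPKM in any library. A list of 5 immune markers summed to 2.01 to 2.62 FPKM in knockdown and 14.3 to 20.9 FPKM in control libraries, almost all of it Cd68, with Ptprc and Cd3e at or near 0. The part of these differences in the results below was not tested, and in bulk RNA fewer cells of a type and less RNA per cell cannot be told apart.

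Of the 37 genes, 35 had a mean of at least 1 FPKM over the 6 libraries and were tested, and Gpx3 and Gpx7 were below it. In the knockdown libraries 21 rose and 5 fell, and 9 did not pass the threshold (limma on log2(FPKM + 1), adjusted p under 0.05 over all 11652 genes tested). Rises made up 60.0% of the tested redox genes and falls 14.3%, beside 33.3% rising and 29.1% falling among all tested genes; 62.4% of all tested genes passed in either direction. The median log2 change was 0.43 for the 35 genes and 0.03 for all tested genes. In 24 of the 35 every knockdown library lay above every control library, and in 4 below; among all tested genes the knockdown libraries lay above in 36.4% and below in 31.7%, together 68.1%. Summed over the 37 genes, the level was 2574 ± 121 FPKM in knockdown and 2040.3 ± 72.0 FPKM in control libraries (SD, n = 3 each), a ratio of 1.26. The largest rises were those of Gsta4, Srxn1, Prdx2 and Gstm1, and the falls were Gsto1, Txn2, Txnrd1, Nfe2l2 and Hmox1. The mitochondrial genes, rRNA and the abundant transcript Gm23935 were also removed, and the rest was rescaled so that each library kept its FPKM sum. A share of FPKM depends on gene length, unlike a share of reads. The shift thus belongs to the removal and this rescaling together. Values given below as without mitochondrial genes and rRNA, or after their removal, carry both steps. The median of all tested genes moved by -0.142 to -0.12. The split of all genes called became 2835 higher and 4454 lower in knockdown, against 3879 and 3388 without the removal. The median of the 35 genes was then 0.29, with 19 higher and 6 lower.

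**Figure D1:**
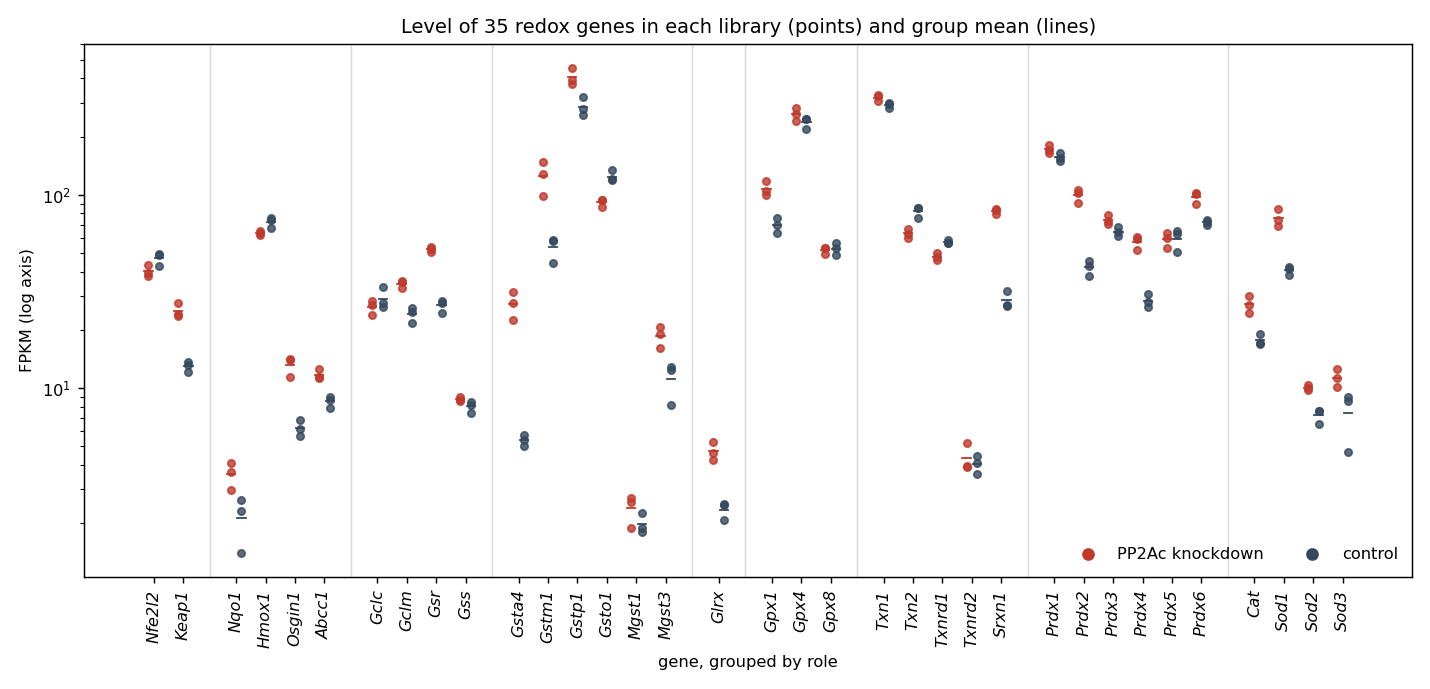
Level in FPKM (log axis) of the 35 tested genes in each library, grouped by role from the regulators at the left to catalase and the superoxide dismutases at the right, with knockdown points to the left of control points and a line at each group mean. Gsta4 shows the widest gap, with 22.4 to 31.3 FPKM in knockdown and 4.99 to 5.73 FPKM in control libraries, and Gpx8 and Prdx5 overlap fully.

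The regulators moved in opposite directions. Keap1, the cysteine-rich sensor that inhibits NRF2 (ENSMUSG00000003308, chromosome 9, 21229730 to 21239361, minus strand, GRCm38), had 24.3, 27.4 and 23.6 FPKM in knockdown libraries, against 12.1, 13.6 and 13.1 FPKM in control libraries. It rose 1.94-fold, with a log2 change of 0.90 ± 0.0808 (SE; limma adjusted p = 4.66e-05). The lowest knockdown library stood well clear of the highest control library. Nfe2l2 (ENSMUSG00000015839, chromosome 2, 75675513 to 75704641, minus strand) had 43.2, 39.3 and 38.1 FPKM in knockdown libraries, against 49.1, 42.7 and 48.7 FPKM in control libraries. Its log2 change was -0.21 ± 0.0823 (SE; limma adjusted p = 0.0498), a call that 9 of the 17 alternative settings ended, and the groups overlapped, with 1 knockdown library above the lowest control library. These are transcript levels, and the amount, location and activity of the NRF2 protein were not measured.

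Promoter stretches of 4 genes are shown because they span the outcomes among genes known as NRF2 targets: Srxn1 and Gclm rose, Prdx1 did not pass the threshold and Txnrd1 fell. Each runs 5′ to 3′ on the gene's strand over the 250 bases before a transcription start in RefSeq (GRCm38.p6), and all 4 lie on the plus strand: Srxn1 at chr2:152105274-152105523, Gclm at chr3:122245307-122245556, Prdx1 at chr4:116685349-116685598 and Txnrd1 at chr10:82858956-82859205, the last being 1 of 3 starts of that gene. Capitals mark matches, on either strand, to the antioxidant response element core TGACNNNGC or to the AP-1 site TGACTCA; a match on the opposite strand reads as its reverse complement.
Srxn1: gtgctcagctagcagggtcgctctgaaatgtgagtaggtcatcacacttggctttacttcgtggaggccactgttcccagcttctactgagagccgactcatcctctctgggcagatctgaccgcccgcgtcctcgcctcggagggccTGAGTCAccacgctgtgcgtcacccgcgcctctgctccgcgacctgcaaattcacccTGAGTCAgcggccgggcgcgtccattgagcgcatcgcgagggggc
Gclm: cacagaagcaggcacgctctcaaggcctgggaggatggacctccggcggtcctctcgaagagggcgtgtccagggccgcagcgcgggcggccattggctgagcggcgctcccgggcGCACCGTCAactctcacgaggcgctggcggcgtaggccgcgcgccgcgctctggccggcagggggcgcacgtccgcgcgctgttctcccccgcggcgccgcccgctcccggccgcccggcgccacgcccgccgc
Prdx1: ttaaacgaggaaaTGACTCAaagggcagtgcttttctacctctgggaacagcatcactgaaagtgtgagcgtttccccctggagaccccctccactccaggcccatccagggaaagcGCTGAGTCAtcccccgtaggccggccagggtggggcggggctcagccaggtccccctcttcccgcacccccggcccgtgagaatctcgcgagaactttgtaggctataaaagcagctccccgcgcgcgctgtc
Txnrd1: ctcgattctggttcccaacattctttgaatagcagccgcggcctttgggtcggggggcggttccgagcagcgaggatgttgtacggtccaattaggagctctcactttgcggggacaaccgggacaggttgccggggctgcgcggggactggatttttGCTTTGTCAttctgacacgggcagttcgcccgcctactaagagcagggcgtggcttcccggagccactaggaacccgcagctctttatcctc

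The capitals in Srxn1 are 2 AP-1 matches, beginning 102 and 45 bases before the start, and its match to the element core falls after the start, outside the stretch shown. Gclm has a core match beginning 134 bases before the start and Txnrd1 one beginning 92 bases before it. That start of Txnrd1 was shown because its window holds a match, and the windows at its other starts hold none to either motif. In Prdx1 the core match TGACTCAGC, on the opposite strand, contains an AP-1 site, so there the motifs overlap, and a second AP-1 match lies 237 bases before the start. Over windows of 300 bases, from 250 before to 50 after a start, the core was found in 7 of 38 windows of the 30 genes matched by symbol, or 18.4%, against 12.4% of all 32851 windows. Those 7 windows belong to Gclm, Mgst1, Nfe2l2, Prdx1, Sod1, Srxn1 and Txnrd1. The AP-1 site was found in 6 of the 38 windows, or 15.8%, against 5.20% of all windows, in Glrx, Gstp1, Osgin1, Prdx1 and Srxn1. The 6 include overlapping windows of Glrx that hold the same site, so that site was counted more than once. The core-bearing genes thus include Srxn1, Gclm and Sod1, which rose, Mgst1 and Prdx1, which did not pass, and Nfe2l2 and Txnrd1, which fell. A match is a match of letters, and binding was not measured. Gsta4, Abcc1, Hmox1, Sod3, Gsr, Prdx6 and Gclc were not matched.

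Among the NRF2-responsive enzymes and the exporter, 3 rose and 1 fell, beside 33.3% and 29.1% of all tested genes. Osgin1, an oxidative stress-induced growth inhibitor, had 14.1, 14.2 and 11.4 FPKM in knockdown libraries, against 5.63, 6.87 and 6.15 FPKM in control libraries. That was a 2.13-fold rise (log2 change of 0.98 ± 0.103 SE, limma adjusted p = 9.97e-05), and the groups stood apart. Abcc1, an ATP-driven pump that exports glutathione conjugates, averaged 11.8 ± 0.690 FPKM in knockdown and 8.52 ± 0.612 FPKM in control libraries (log2 change of 0.42, limma adjusted p = 0.00181). Nqo1, the quinone reductase often used as a readout of NRF2, was low: it had 3.66, 4.12 and 2.97 FPKM in knockdown libraries, against 1.41, 2.32 and 2.63 FPKM in control libraries. Its rise of 1.69-fold (log2 change of 0.57 ± 0.167 SE, limma adjusted p = 0.017) rested on 88, 98 and 69 reads in knockdown and 35, 56 and 67 reads in control libraries. The lowest knockdown library and the highest control library were close, and the call ended without the second knockdown library (limma adjusted p = 0.0617) and without the filter on low values (0.0692). Hmox1, heme oxygenase 1, which breaks down heme, had 63.6, 65.1 and 62.1 FPKM in knockdown libraries, against 74.3, 75.4 and 67.7 FPKM in control libraries. It fell by 0.18 on the log2 scale (limma adjusted p = 0.0447), a small difference with no overlap that lost its call in 7 of 17 alternatives. Nqo1 and Hmox1, both usual reporters of NRF2, therefore differed in direction.

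Glutathione is made in sequence by glutamate-cysteine ligase and glutathione synthetase and is recycled by glutathione reductase. Gsr, the reductase (ENSMUSG00000031584, chromosome 8, 33652523 to 33698163, plus strand), had 52.4, 50.7 and 53.6 FPKM in knockdown libraries, against 24.6, 28.3 and 27.6 FPKM in control libraries. The rise was 1.95-fold, with a log2 change of 0.94 ± 0.0737 (SE; limma adjusted p = 2.59e-05). The knockdown libraries lay close together and far above the controls. Gclm, the modifier subunit of the ligase, had 35.4, 33.1 and 35.6 FPKM in knockdown libraries, against 21.8, 24.7 and 25.9 FPKM in control libraries (log2 change of 0.51 ± 0.0805 SE, limma adjusted p = 0.000789). Gclc, the catalytic subunit of the same enzyme, had 28.4, 23.8 and 26.9 FPKM in knockdown libraries, against 26.1, 27.5 and 33.4 FPKM in control libraries, with a log2 change of -0.13 (limma adjusted p = 0.314). So the modifier subunit rose without overlap, while the catalytic subunit overlapped between groups. Gclc passed, as lower, only when mitochondrial genes and rRNA were removed and the rest rescaled (log2 change of -0.29, limma adjusted p = 0.0327). With 1 library left out the log2 change of Gclc ranged from -0.20 to -0.0276, nearest to 0 without the third control library, which was its highest, and it was -0.0609 without the second knockdown library. A stretch of Gclm of at least 95% identity to cyclophilin A sequences, Ppia (290.7 FPKM in knockdown, 176.6 FPKM in control) and its pseudogene Gm10123 (629 FPKM in knockdown, 125 FPKM in control) among them, makes its level uncertain where reads could be shared. Gss, the synthetase, averaged 8.75 ± 0.209 FPKM in knockdown and 8.04 ± 0.553 FPKM in control libraries (log2 change of 0.11, limma adjusted p = 0.217); without mitochondrial genes and rRNA the log2 change was -0.0337.

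Glutathione transferases attach glutathione to electrophiles, and 4 of the 6 rose while 1 fell, beside 33.3% and 29.1% of all tested genes. Gsta4, an alpha class enzyme active on the lipid peroxidation product 4-hydroxynonenal (ENSMUSG00000032348, chromosome 9, 78182774 to 78209349, plus strand), had 27.7, 31.3 and 22.4 FPKM in knockdown libraries, against 5.38, 4.99 and 5.73 FPKM in control libraries. It rose 5.06-fold, with a log2 change of 2.13 ± 0.117 (SE; limma adjusted p = 5.66e-06). None of the other tested genes of the set changed as much, and the lowest knockdown library was several times the highest control library. Gstm1, a mu class enzyme, had 147, 128 and 98.8 FPKM in knockdown libraries, against 44.5, 57.4 and 58.5 FPKM in control libraries (log2 change of 1.20 ± 0.157 SE, limma adjusted p = 0.000294). Gstp1, a pi class enzyme with the highest mean FPKM of the 37 in knockdown libraries, had 393, 452 and 373 FPKM in knockdown libraries, against 279, 319 and 258 FPKM in control libraries (log2 change of 0.51, limma adjusted p = 0.00352). Both groups scattered, but neither gene overlapped between them. Each has a near-identical pseudogene that could share reads: Gstm2-ps1 had 4.93 FPKM in knockdown and 2.58 FPKM in control libraries, and Gstp-ps 43.3 FPKM in knockdown and 34.5 FPKM in control. Mgst3, a microsomal transferase, averaged 18.6 ± 2.28 FPKM in knockdown and 11.2 ± 2.57 FPKM in control libraries (log2 change of 0.70, limma adjusted p = 0.00528).

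Gsto1, an omega class enzyme that works through a cysteine and has thioltransferase and dehydroascorbate reductase activity, moved the other way. It had 86.8, 93.5 and 94.4 FPKM in knockdown libraries, against 134, 120.0 and 119 FPKM in control libraries, a fall by 0.44 on the log2 scale (SE 0.0754, limma adjusted p = 0.00128). The groups were apart, and the call held in all 17 alternatives. Mgst1, another microsomal transferase, averaged 2.39 ± 0.429 FPKM in knockdown and 1.99 ± 0.249 FPKM in control libraries and did not pass (limma adjusted p = 0.253). The transferases together summed to 669.9 ± 60.7 FPKM in knockdown and 482 ± 30.9 FPKM in control libraries. Within that sum Gstp1 kept the major share, with 60.6% in knockdown and 59.1% in control libraries, while Gsto1 held 13.8% in knockdown and 25.9% in control, Gstm1 18.5% in knockdown and 11.1% in control, and Gsta4 4.03% in knockdown and 1.12% in control. Glrx, cytosolic glutaredoxin 1, which removes glutathione from protein thiols, had 5.26, 4.61 and 4.25 FPKM in knockdown libraries, against 2.50, 2.48 and 2.08 FPKM in control libraries. It rose 2.00-fold (log2 change of 0.77 ± 0.101 SE, limma adjusted p = 0.000295), with no overlap.

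**Figure D2:**
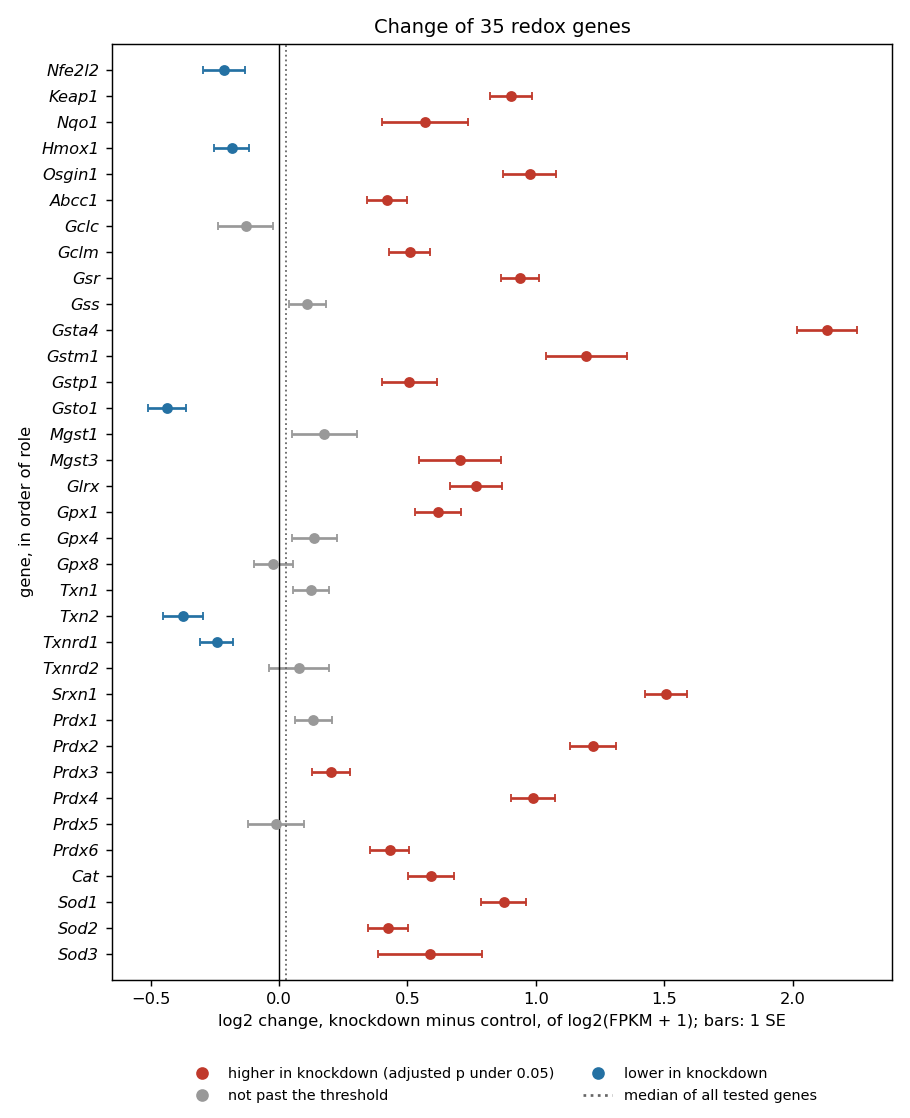
Log2 change, knockdown minus control, of log2(FPKM + 1) for each of the 35 tested genes in order of role, with bars of 1 SE, coloured by call, and a dotted line at the median of all tested genes (0.03). Points run from Gsto1 at -0.44 to Gsta4 at 2.13, and 21 lie right of 0 with an adjusted p under 0.05.

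Glutathione peroxidases reduce peroxides, and those of the family that carry selenocysteine read a UGA codon as that amino acid. The coding sequence around that codon, with TGA in capitals, is shown for the tested members that carry one, of which Gpx1 rose, Txnrd1 fell and Gpx4 and Txnrd2 did not pass. The sequences run 5′ to 3′ and come from GENCODE M21 transcripts; 5 of the 37 genes have such a codon, the other being Gpx3.
Gpx1: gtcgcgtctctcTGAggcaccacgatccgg
Gpx4: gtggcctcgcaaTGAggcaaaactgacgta
Txnrd1: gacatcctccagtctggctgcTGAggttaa
Txnrd2: gagcctactgtgactggttgcTGAggctaa

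Positions are those in the longest complete coding sequence of each gene that holds the codon, and they can differ in its shorter forms. Counted with the stop codon, it is number 47 of 202 in Gpx1 and 129 of 254 in Gpx4. In both reductases it encodes the last residue but one, as codon 612 of 614 in Txnrd1 and 526 of 528 in Txnrd2. Gpx1, the cytosolic peroxidase that reduces hydrogen peroxide, had 105, 117 and 100.2 FPKM in knockdown libraries, against 69.8, 75.5 and 63.7 FPKM in control libraries. It rose 1.54-fold (log2 change of 0.62 ± 0.0896 SE, limma adjusted p = 0.000497), without overlap. Gpx4, which reduces phospholipid hydroperoxides in membranes and restrains ferroptosis, had 261, 282 and 241 FPKM in knockdown libraries, against 246, 247 and 219 FPKM in control libraries. Its log2 change was 0.14 ± 0.0865 (SE; limma adjusted p = 0.197), or -0.0219 without mitochondrial genes and rRNA, and the groups overlapped. Gpx4 shares over 99% of a stretch of 762 bases with the pseudogene Gpx4-ps2 (99.2 ± 14.7 FPKM in knockdown and 93.4 ± 0.279 FPKM in control), so reads may be divided between them. Gpx8, a peroxidase of the endoplasmic reticulum without selenocysteine, averaged 51.8 ± 1.99 FPKM in knockdown and 52.7 ± 3.91 FPKM in control libraries (log2 change of -0.02, limma adjusted p = 0.821). Gpx3, the secreted form, had 2, 10 and 1 reads in knockdown and 6, 10 and 7 reads in control libraries. Gpx7, of the endoplasmic reticulum, had 0 reads in each knockdown library, which allows up to 0.156 FPKM per library by 3 reads, against 0, 3 and 6 reads in control libraries. Gpx4 made up 62.1% of the peroxidase FPKM in knockdown and 65.9% in control libraries, and Gpx1 25.5% in knockdown and 19.3% in control.

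Of the 5 genes of the thioredoxin system 1 rose, 2 fell and 2 did not pass, beside 33.3% rising and 29.1% falling among all tested genes. Srxn1, sulfiredoxin, which repairs over-oxidised peroxiredoxins (ENSMUSG00000032802, chromosome 2, 152105516 to 152111376, plus strand), had 84.1, 83.6 and 79.5 FPKM in knockdown libraries, against 26.6, 31.7 and 27.0 FPKM in control libraries. It rose 2.89-fold, with a log2 change of 1.505 ± 0.0817 (SE; limma adjusted p = 5.5e-06). Its knockdown libraries were tightly grouped and far above the controls. Txnrd1, the cytosolic thioredoxin reductase, had 47.9, 45.7 and 50.1 FPKM in knockdown libraries, against 56.1, 56.3 and 58.0 FPKM in control libraries, a fall by 0.24 on the log2 scale (SE 0.0646, limma adjusted p = 0.0111). Txn2, mitochondrial thioredoxin, had 62.9, 66.7 and 59.7 FPKM in knockdown libraries, against 85.6, 85.1 and 75.5 FPKM in control libraries, a fall by 0.37 on the log2 scale (SE 0.0779, limma adjusted p = 0.00337). Neither fall showed overlap, and both calls held in all 17 alternatives. Txnrd1 contains Eid3 on the same strand, which averaged 1.09 FPKM in knockdown and 4.37 FPKM in control libraries. Txn1, cytosolic thioredoxin, averaged 318 ± 12.4 FPKM in knockdown and 292 ± 10.3 FPKM in control libraries; every knockdown library was above every control library, but the log2 change of 0.12 did not pass (limma adjusted p = 0.157) and was -0.0347 without mitochondrial genes and rRNA. Txnrd2, the mitochondrial reductase, averaged 4.35 ± 0.733 FPKM in knockdown and 4.05 ± 0.436 FPKM in control libraries (log2 change of 0.08, limma adjusted p = 0.586), and its sign turned with that removal (-0.0532) and without the second knockdown library (-0.0333). Glutathione reductase thus rose while the cytosolic thioredoxin reductase fell.

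Peroxiredoxins are abundant peroxidases that use thioredoxin or, for Prdx6, glutathione, and 4 of 6 rose, beside 33.3% of all tested genes. Prdx2, a cytosolic form (ENSMUSG00000005161, chromosome 8, 84969587 to 84974834, plus strand), had 102, 106 and 90.9 FPKM in knockdown libraries, against 38.1, 45.6 and 42.6 FPKM in control libraries. It rose 2.36-fold (log2 change of 1.22 ± 0.0903 SE, limma adjusted p = 1.92e-05). It overlaps Junb on the opposite strand by 351 bases, and Junb averaged 66.4 FPKM in knockdown and 83.6 FPKM in control libraries (the strand setting of the counting is not stated). Prdx4, the form of the endoplasmic reticulum, on the X chromosome, had 59.3, 60.4 and 51.7 FPKM in knockdown libraries, against 26.4, 27.8 and 30.5 FPKM in control libraries (log2 change of 0.99 ± 0.0861 SE, limma adjusted p = 4.05e-05). Neither gene overlapped between the groups. Prdx6, which also has phospholipase activity, averaged 97.5 ± 7.20 FPKM in knockdown and 72.0 ± 1.88 FPKM in control libraries (log2 change of 0.43, limma adjusted p = 0.00129). Prdx3, the mitochondrial form, averaged 74.1 ± 4.19 FPKM in knockdown and 64.3 ± 3.46 FPKM in control libraries, and its log2 change of 0.20 (limma adjusted p = 0.0411) lost its call in 8 of 17 alternatives, with 0.044 after removal of mitochondrial genes and rRNA.

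Prdx1, the most abundant peroxiredoxin and a cytosolic partner of Prdx2, had 182, 170.3 and 165 FPKM in knockdown libraries, against 165, 150.4 and 156 FPKM in control libraries. The log2 change of 0.13 did not pass (limma adjusted p = 0.137) and was -0.0247 without mitochondrial genes and rRNA. A near-identical copy, Gm21399, was at 6.93 FPKM in knockdown and 6.99 FPKM in control libraries. Prdx5, found in several compartments, overlapped fully, with 58.7 ± 5.37 FPKM in knockdown and 59.3 ± 7.53 FPKM in control libraries (log2 change of -0.01, limma adjusted p = 0.942). As a family the peroxiredoxins summed to 559 ± 27.9 FPKM in knockdown and 423 ± 12.6 FPKM in control libraries. Prdx2 took 17.8% of that sum in knockdown and 9.98% in control libraries, and Prdx1 30.8% in knockdown and 37.1% in control.

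**Figure D3:**
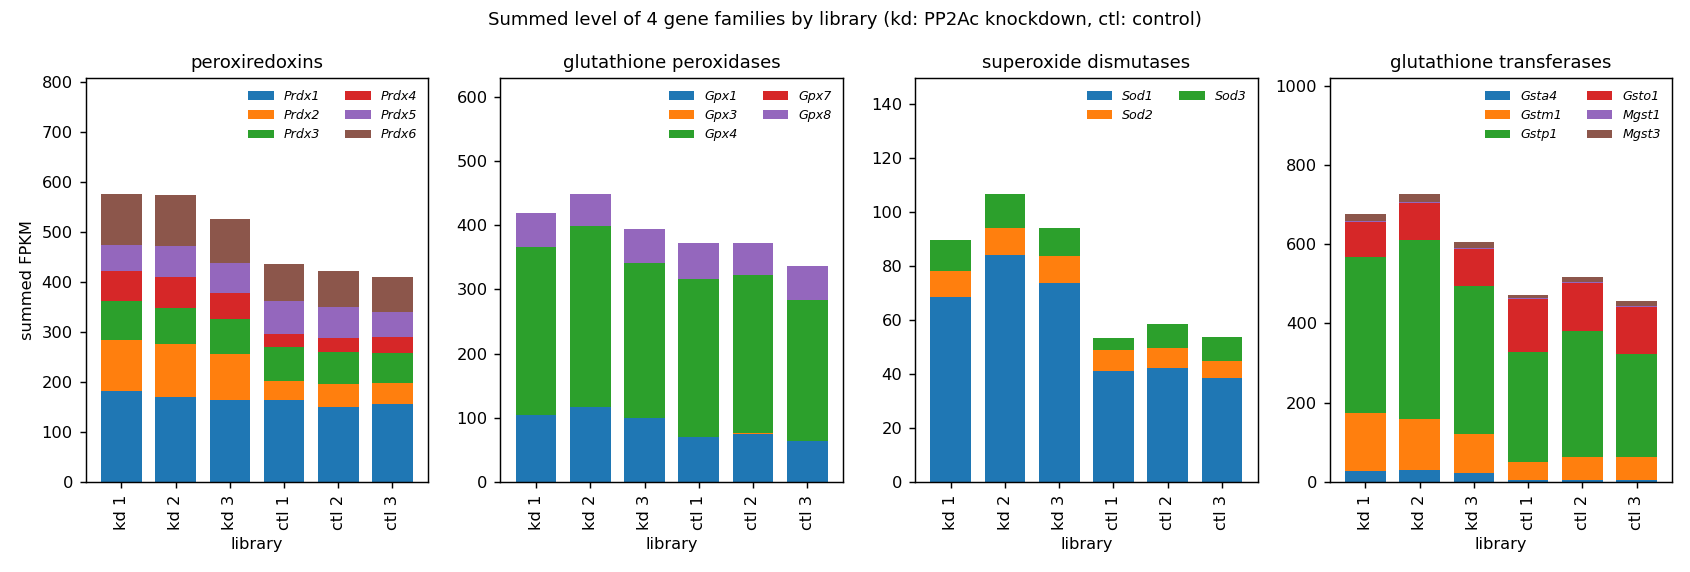
Stacked levels in FPKM of the peroxiredoxins, glutathione peroxidases, superoxide dismutases and glutathione transferases in each library, knockdown libraries (kd) left of control libraries (ctl), with 1 colour per gene and a separate scale in each panel. The dismutase sum is 1.75 times as high in knockdown, mainly through Sod1, and the peroxidase sum 1.17 times.

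Superoxide dismutases turn superoxide into hydrogen peroxide, which catalase breaks down, and these 4 genes all rose, beside 33.3% of all tested genes. Sod1, the copper and zinc enzyme of the cytosol, had 68.6, 84.0 and 73.9 FPKM in knockdown libraries, against 41.2, 42.1 and 38.5 FPKM in control libraries. The rise was 1.86-fold (log2 change of 0.87 ± 0.0867 SE, limma adjusted p = 7.45e-05), with the groups far apart. A near-identical pseudogene, Gm8566, had 18.0 FPKM in knockdown and 9.76 FPKM in control libraries, so reads may be divided between them. Cat, peroxisomal catalase, had 30.1, 24.6 and 26.8 FPKM in knockdown libraries, against 19.0, 16.9 and 17.0 FPKM in control libraries (log2 change of 0.59 ± 0.0895 SE, limma adjusted p = 0.000622). Sod2, the manganese enzyme of mitochondria, had 9.73, 10.3 and 10.03 FPKM in knockdown libraries, against 7.59, 7.59 and 6.51 FPKM in control libraries (log2 change of 0.43 ± 0.0781 SE, limma adjusted p = 0.00173). Both genes separated by group. Sod2 shares a near-identical stretch with Rps6ka2, at 6.65 FPKM in knockdown and 8.51 FPKM in control libraries, and Sod1, Gsto1, Gss, Prdx5 and Txnrd2 each overlap a gene on the opposite strand, so their levels carry that uncertainty. Sod3, the secreted enzyme, had 11.2, 12.5 and 10.1 FPKM in knockdown libraries, against 4.65, 8.98 and 8.57 FPKM in control libraries. One control library was far below the other two, and without it the log2 change of 0.59 (SE 0.203, limma adjusted p = 0.0335) became 0.32 (limma adjusted p = 0.0278). The call was lost in 5 alternatives, among them the removal of mitochondrial genes and rRNA (0.0883) and the omission of each knockdown library (0.0502 to 0.0991). By compartment, the 4 mitochondrial genes gave 2 rises (Prdx3 and Sod2), 1 fall (Txn2) and 1 gene that did not pass (Txnrd2). Among all tested genes 33.3% rose and 29.1% fell, and the call of Prdx3 was lost in 8 of 17 alternatives.

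Lists of related genes, taken from textbook pathways, place these values. Their counts are to be read beside the 33.3% of all tested genes that rose and the 29.1% that fell. Among 16 other KEAP1-NRF2 regulators, 14 were tested: 4 (28.6%) rose and 9 (64.3%) fell, with a median log2 change of -0.36. Cul3, the scaffold of the ligase that KEAP1 recruits, averaged 15.6 ± 1.54 FPKM in knockdown and 29.7 ± 3.27 FPKM in control libraries (log2 change of -0.89, limma adjusted p = 0.000142). Maff, a small MAF protein of the family that pairs with NRF2 on DNA, averaged 22.9 ± 1.22 FPKM in knockdown and 44.0 ± 3.01 FPKM in control libraries (log2 change of -0.91, limma adjusted p = 3.27e-05). Both thus fell while Keap1 rose. Dpp3, which binds KEAP1, rose by 0.43 on the log2 scale (limma adjusted p = 0.000803), and Trim21, a ubiquitin ligase, by 0.66 (0.000446).

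Of 24 other NRF2-responsive enzymes and transporters, 20 were tested, and 12 rose and 2 fell, with a median log2 change of 0.44. Blvrb, biliverdin reductase B, averaged 103 ± 10.2 FPKM in knockdown and 25.2 ± 2.59 FPKM in control libraries (log2 change of 1.99, limma adjusted p = 4.17e-06). Ces1g, a carboxylesterase, averaged 26.4 ± 3.69 FPKM in knockdown and 4.27 ± 0.922 FPKM in control libraries (2.39, limma adjusted p = 8.98e-06). Nqo2, a quinone reductase related to Nqo1, moved the other way, with 8.20 ± 0.449 FPKM in knockdown and 31.3 ± 1.83 FPKM in control libraries (log2 change of -1.81, limma adjusted p = 2.09e-06). The other gene that fell was Slc7a11, the cystine transporter that supplies cysteine for glutathione, at 2.10 ± 0.205 FPKM in knockdown and 4.84 ± 0.0482 FPKM in control libraries (log2 change of -0.91, limma adjusted p = 5.79e-05); it was named after its value was seen.

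Among 40 other glutathione enzymes 23 were tested, and 9 rose and 5 fell, a share of called genes close to that of all genes, with a median log2 change of 0.08. Anpep, aminopeptidase N, which cleaves the dipeptide left by glutathione breakdown, rose to 11.3 ± 0.983 FPKM in knockdown, against 2.24 ± 0.272 FPKM in control libraries (log2 change of 1.92, limma adjusted p = 4.05e-06). Glrx5, a mitochondrial glutaredoxin of iron-sulfur cluster assembly, rose by 0.96 (limma adjusted p = 0.000108). Chac1, which degrades glutathione in the cytosol, fell to 29.6 ± 2.40 FPKM in knockdown, against 65.6 ± 7.36 FPKM in control libraries (log2 change of -1.12, limma adjusted p = 4.46e-05). Slc25a40, a mitochondrial carrier linked to glutathione import, averaged 5.06 ± 0.567 FPKM in knockdown and 13.5 ± 1.47 FPKM in control libraries (log2 change of -1.26, limma adjusted p = 3e-05). Among 29 other thioredoxin-fold and reductase genes 26 were tested, and 12 (46.2%) rose and 7 (26.9%) fell, with a median of 0.10. Nxn, nucleoredoxin, rose by 1.52 (limma adjusted p = 1.61e-05) and Qsox1, a sulfhydryl oxidase of the secretory pathway, by 1.23 (1.3e-05). Tmx3 and Txndc12, thioredoxin-fold proteins of the endoplasmic reticulum, had log2 changes of -1.29 (limma adjusted p = 2.4e-05) and -0.79 (0.000116).

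**Figure D4:**
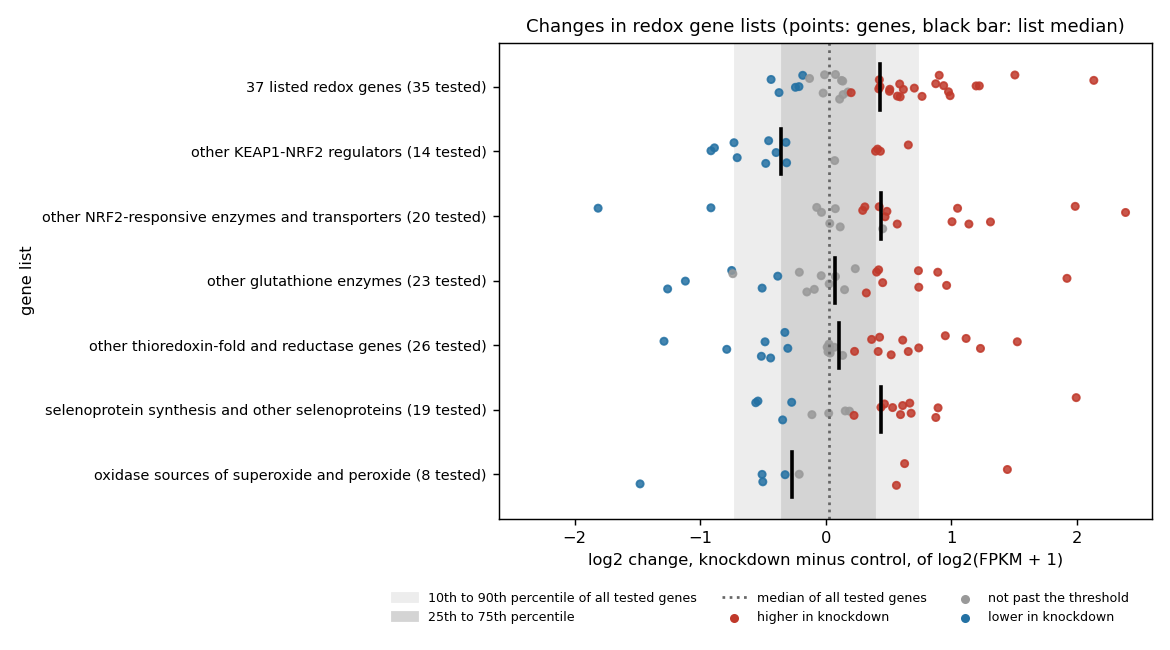
Log2 change, knockdown minus control, of log2(FPKM + 1) for each tested gene of the 37 redox genes and of 6 related lists (points, coloured by call), with each list's median as a black bar and the spread of all tested genes in grey. The median is 0.43 for the 37 listed genes, 0.44 for the other NRF2-responsive genes and -0.36 for the other regulators, against 0.03 for all tested genes.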

How the data were processed

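RNA of 3 knockdown and 3 control libraries was sequenced after TruSeq preparation, per the labels' protocols. The authors deposited 1 table of FPKM per gene, with coordinates; GRCm38 and mm10 are named per the submitters' processing notes, and no aligner, counter or strand setting is named there (not given in the sources used here). FPKM steps gave whole reads for 100% of values within 0.01, used for depths, floors of 3 reads and 1 alternative. The floors cover counting error only. A ± after a mean is the SD between the 3 libraries of a group, and a ± after a log2 change is the limma SE. Genes averaging 1 FPKM or more over the 6 libraries were tested on log2(FPKM + 1) with limma 3.58.1 (lmFit, eBayes with trend) in R 4.3.3, with Benjamini-Hochberg adjustment over all genes and a threshold of 0.05; fold changes on this scale understate those of low genes. Members and lists were chosen with earlier results of these data known. Apart from the 37 genes, each list was represented by up to 2 genes with the largest rise and 2 with the largest fall among those past the threshold with at least 5 FPKM in the higher group; cell type markers were counted. Promoters came from RefSeq GRCm38.p6. Coding sequences and the transcripts compared for near-identical stretches came from GENCODE M21, and overlaps from the deposited gene coordinates. Alternatives covered pseudocount, filter, scaling, gene type, variance model, weights, recovered reads, a replicate block and each library left out.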

Additional observations from a re-analysis of the deposited data

How the results depend on the processing

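Of the 26 redox genes past the threshold, 21 kept their call in every alternative in which they were tested (18 higher and 3 lower in knockdown). Those were all 17 alternatives except for Glrx, which had 16 because it was too low for the filter of a mean of at least 5 FPKM. Nfe2l2, Nqo1, Hmox1, Prdx3 and Sod3 lost theirs in at least 1. Of the 9 not past it, 8 never passed, the exception being Gclc. Among the 17 alternatives, median-of-ratios scaling could hardly change a call, because its factor was 1.007 in every library. The count lower in knockdown was 5 and became 3 without the filter on low values and 3 with eBayes without trend; with 1 library left out it ranged from 3 to 4, the count higher in knockdown from 18 to 21, the count of all genes called from 6473 to 6949, and the log2 change of Ppp2ca from -1.76 to -1.61. With mitochondrial genes, rRNA and Gm23935 removed and the rest rescaled to the same FPKM sum, 5 log2 changes turned negative. They were those of Gss (-0.0337), Txn1 (-0.0347), Txnrd2 (-0.0532), Gpx4 (-0.0219) and Prdx1 (-0.0247), none of them called. With 1 library left out, the change ranged from -0.0333 to 0.14 for Txnrd2, from -0.0774 to 0.0276 for Gpx8 and from -0.12 to 0.0615 for Prdx5, again never called; the cause was not tested. Libraries with the same number did not deviate together (correlations of -0.011, 0.159 and 0.052 over 11652 genes), and a replicate block gave 21 higher, 5 lower and 7363 genes called in all. Depth limits Gpx3, Gpx7, Nqo1 and Mgst1, the lowest of the 37.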

Other observations

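Selenoproteins need their own synthesis machinery, and of 23 further genes for it and for other selenoproteins 19 were tested. In knockdown libraries 11 (57.9%) rose and 4 (21.1%) fell, beside 33.3% and 29.1% of all tested genes. The median log2 change was 0.44. Selenom, a thioredoxin-fold selenoprotein of the endoplasmic reticulum, averaged 31.5 ± 1.86 FPKM in knockdown and 7.22 ± 1.27 FPKM in control libraries (log2 change of 1.99, limma adjusted p = 7.49e-06). Selenon, of the same compartment, averaged 49.5 ± 4.53 FPKM in knockdown and 26.2 ± 1.94 FPKM in control libraries (0.89, limma adjusted p = 7.98e-05). Selenot averaged 44.0 ± 3.79 FPKM in knockdown and 65.3 ± 5.79 FPKM in control libraries (log2 change of -0.56, limma adjusted p = 0.000971). Scly, selenocysteine lyase, which recycles selenium, averaged 3.93 ± 0.0667 FPKM in knockdown and 5.26 ± 0.372 FPKM in control libraries (log2 change of -0.34, limma adjusted p = 0.0051).

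Of 19 genes for oxidases that make superoxide or hydrogen peroxide, 8 were tested, with a median log2 change of -0.27. Among them 3 (37.5%) rose and 4 (50%) fell, beside 33.3% and 29.1% of all tested genes. Cyba, the membrane partner p22phox of NADPH oxidases, averaged 131 ± 15.6 FPKM in knockdown and 84.2 ± 8.20 FPKM in control libraries (log2 change of 0.63, limma adjusted p = 0.00115). Ncf4, a cytosolic subunit of the phagocyte oxidase, averaged 7.20 ± 0.401 FPKM in knockdown and 2.02 ± 0.196 FPKM in control libraries (1.45, limma adjusted p = 8.28e-06). Ero1l, the oxidase that drives disulfide formation in the endoplasmic reticulum and yields hydrogen peroxide, averaged 23.2 ± 1.81 FPKM in knockdown and 66.3 ± 4.87 FPKM in control libraries (log2 change of -1.48, limma adjusted p = 7.09e-06). Xdh, xanthine dehydrogenase, which can act as an oxidase, averaged 46.6 ± 2.80 FPKM in knockdown and 66.7 ± 2.23 FPKM in control libraries (log2 change of -0.51, limma adjusted p = 0.000389).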
